A study of Mus musculus with 63 samples.

Results

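Progression of a cell from G1 into DNA synthesis is driven by cyclin-dependent kinases (CDKs), which are switched on by cyclins and held back by CDK inhibitors, and 10 genes of this machinery were followed in mouse intestinal tumours. They were chosen by symbol, as 3 kinases (*Cdk4*, *Cdk6* and *Cdk2*), 4 cyclins (*Ccnd1*, *Ccnd2*, *Ccnd3* and *Ccne1*) and 3 inhibitors (*Cdkn1b*, *Cdkn2a* and *Cdkn1c*), out of 24766 genes in the deposited table, and all 10 were tested in every comparison. The tumours came from 2 mice, 1 female and 1 male, of the genotype Villin-creERT2; Apc fl/+; Rosa fl/Confetti on a C57BL/6 background, given tamoxifen (4 mg) and, 10 days later, the mutagen ENU (200 mg/kg). All 3 groups shared this genotype and treatment. From 20 heterotypic tumours, 10 per mouse, 1 library was made of the minor (smaller) clone and 1 of the major (larger) clone, as classed in the source data of the study. Another 23 tumours, 10 of them from the female mouse, were sequenced whole and are called undivided here. The study describes a monoclonal group of fewer tumours than this, and the labels do not give which of the undivided tumours it held or how many clones each had. The Cre recombinase is driven by an epithelial promoter, so stromal and immune cells of the tumours keep both *Apc* alleles. Tumours of 1 mouse share that animal, so p-values measure the spread between tumours of these 2 mice, and mouse and sex cannot be told apart.

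In textbook outline, D-type cyclins join CDK4 or CDK6 and begin to phosphorylate the retinoblastoma protein, which frees E2F factors to switch on the genes of DNA synthesis, among them *Ccne1*. Cyclin E with CDK2 then completes the step. *Cdkn2a* encodes an inhibitor that binds CDK4 and CDK6, whereas the products of *Cdkn1b* and *Cdkn1c* bind whole cyclin and CDK complexes. In the intestine, *Ccnd1*, *Ccnd2* and *Cdk4* are best known as genes raised by WNT signalling or Myc, which drive crypt cells to divide.

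Values are normalised counts, that is, read counts per gene estimated by the authors and scaled between libraries. The scaling hides how many reads stand behind each value, so the error given is the spread between tumours. Epithelial marker genes (7 of 7) were detected in each group, and so were all 9 fibroblast and muscle, 5 endothelial and 9 leukocyte markers. Of the leukocyte markers, 8 had a mean of at least 10. The lowest sum in any library was 875 for fibroblast and muscle, 704 for endothelial and 366 for leukocyte markers. Each library thus held RNA of other cell types besides the tumour epithelium. In such bulk samples, fewer cells of a type and less RNA per cell cannot be told apart. *Rn18s*, a ribosomal RNA gene, took from 0.555% to 19.3% of a library, with a median of 3.11% in undivided tumours, 6.19% in minor and 1.24% in major clones.

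When the 2 clones of each tumour were compared, 0 of the 10 genes passed an adjusted p of 0.05 in limma, where 1.14% of 16428 genes did. At an unadjusted p under 0.05 there were 2 (*Cdk4* and *Cdkn1c*, both lower in major clones), and 22.4% of all genes reached that level, so the share among the 10 was near the background. The median log2 fold change of the 10 was -0.08, and that of all genes tested was 0.01. The 95% interval of the fold was within 0.761 to 1.34 for each kinase and cyclin, and was widest for *Cdkn2a* (0.580 to 1.28). Undivided tumours against minor clones also gave 0 of 10 (background 3.7% of 16491 genes) and, without adjustment, 1 (*Cdkn1c*, background 19.6%). Undivided tumours against major clones, which share the undivided tumours with the comparison before, gave 0 of 10 with adjustment (background 0.0121% of 16510 genes) and 0 without it (background 12%).

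**Figure D1:**
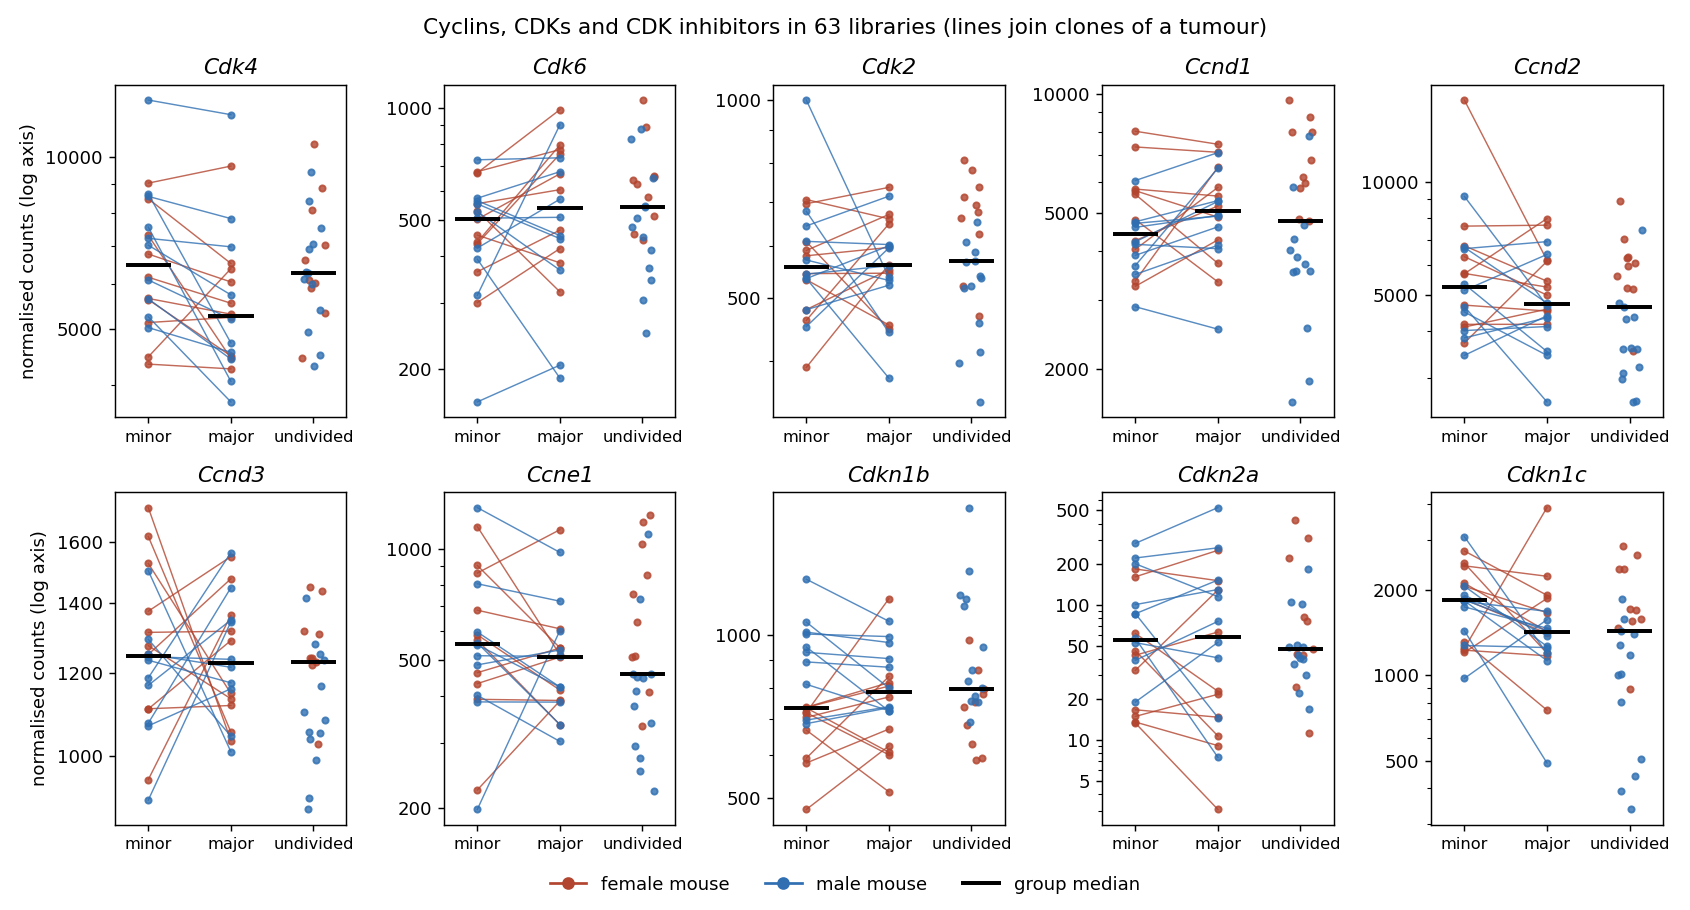
Normalised counts (log axis) of the 10 genes in 20 minor clones, 20 major clones and 23 undivided tumours. Points are libraries coloured by mouse, lines join the clones of a tumour, and black bars are group medians. The groups overlap for all 10 genes, and *Cdkn2a* is spread over the widest range, from 3.05 to 525.

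*Cdk4* (ENSMUSG00000006728, GRCm39 chromosome 10, 126895180 to 126903789, plus strand), a kinase of early G1, had a lowest, median and highest value of 4345, 6471 and 12605 in minor clones, 3731, 5281 and 11882 in major clones, and 4312, 6267 and 10559.6 in undivided tumours. The groups overlapped over most of their range, and both clones of male tumour 19 were the highest of their class. Within tumours the major clone had the lower *Cdk4* in 17 of 20 (10 of 10 in the male and 7 of 10 in the female mouse). The log2 fold change was -0.24 (standard error 0.07, a fold of 0.848 with a 95% interval of 0.765 to 0.941). Its adjusted p was 0.0725 in limma, and swapping the clone labels within tumours gave p = 0.00366 (permutation test, two-sided, n = 20). The adjusted p lay between 0.0260 and 0.811 over 32 alternative settings. It passed 0.05 with quantile normalisation (0.0440), with libraries scaled to the same sum without *Rn18s* (0.0474) and without female tumour 19 (0.0260), where the major clone had 6383 against 4474 in the minor clone. The widest gaps the other way were 4053 in the major against 7549.9 in the minor clone of male tumour 20, and 4733 against 8635 in male tumour 22. These figures of *Cdk4* were known when the genes were chosen.

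Between clones *Rn18s* went the same way as *Cdk4*, and most markers of every cell type list went the other way. *Rn18s* was lower in major clones (log2 fold change -1.46, standard error 0.33, limma adjusted p = 0.0375), in 15 of 20 tumours. In 14 of 20 tumours *Cdk4* and *Rn18s* were both lower in the major clone, a count that follows largely from each being lower in most tumours. The differences within tumours correlated at r = 0.37 for *Cdk4* with *Rn18s*. For *Cdkn1c* with *Rn18s* the count was also 14, and r was -0.02. A relation to *Rn18s* was not particular to *Cdk4*. The widest r within tumours was that of *Ccnd1* (-0.67), and that of *Cdk6* was -0.37. For the remaining genes followed here it lay from -0.19 (*Ccne1*) to 0.21 (*Ccnd2*). Over the 63 libraries, after removal of the mean of each group in each mouse, *Cdk4* correlated with *Rn18s* at r = 0.61 and with the mean of 9 secretory cell markers at r = -0.72. With the other marker lists r was -0.60 for fibroblast and muscle, -0.63 for endothelial, -0.59 for epithelial, -0.58 for enterocyte and -0.42 for leukocyte markers. Over the same libraries r with *Rn18s* was -0.44 for *Cdk6*, -0.37 for *Cdkn1c* and 0.36 for *Cdkn1b*. For the remaining genes followed here it lay from -0.11 (*Ccnd1*) to 0.24 (*Ccne1*). Of the 9 secretory markers 9 were higher in major clones, where 51.8% of all genes were. Of these, 1 passed the adjusted threshold (*Chgb*, log2 fold change 0.89, limma adjusted p = 0.0207). Of 9 fibroblast and muscle markers 8 were higher and 0 passed (median log2 fold change 0.66; *Lum*, 1.03, limma adjusted p = 0.0621). The sum of those 9 ranged from 1759.67 to 24823 in minor clones (median 6658) and from 1825 to 26213 in major clones (median 8914). Also higher in major clones were 7 of 7 epithelial, 7 of 7 enterocyte and 8 of 8 leukocyte markers tested, and 3 of 5 endothelial markers. Among these, 1 enterocyte marker passed the adjusted threshold. The part of *Rn18s* and of these lists in the differences of *Cdk4*, *Cdk6* and *Ccnd1* was not tested.

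*Cdk6* (ENSMUSG00000040274, chromosome 5, 3391485 to 3581008, plus strand), the partner of *Cdk4* in the same step, had a median of 505 in minor clones (163 to 726), 539 in major clones (189 to 989.8) and 542 in undivided tumours (249 to 1051). It was higher in the major clone of 14 of 20 tumours, and the log2 fold change of 0.16 (standard error 0.12) did not pass (limma adjusted p = 0.468). Per kilobase of exon *Cdk6* made up 2.02% of the sum of *Cdk4* and *Cdk6* in the median library and at most 4.54% in any of the 63. *Cdk2* (ENSMUSG00000025358, chromosome 10, 128533796 to 128540963, minus strand), the partner of cyclin E, was steadier, with medians of 557 in minor clones, 560.4 in major clones and 569 in undivided tumours, between 347 and 999 in every library. The log2 fold change of *Cdk2* between clones was -0.03 (95% interval -0.19 to 0.14).

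The sequence before the start site is shown for the 3 kinases and for *Ccne1*, whose levels varied together or apart over the libraries, with matches in capitals. Each run is the 250 bases before the start of the canonical transcript (Gencode M39, GRCm39), 5′ to 3′ on the strand of the gene, and *Cdk4*, *Cdk6* and *Ccne1* have further transcripts that start upstream. Searched on both strands were the E-box CACGTG, bound by Myc and other factors and the same on both strands, the E2F motifs TTTCCCGC, TTTGGCGC, TTTCGCGC and TTTGCCGC, and the TCF motifs CTTTGAA and CTTTGAT. No matches of different motifs overlapped here.
Cdk4, chr10:126899125-126899374, plus strand: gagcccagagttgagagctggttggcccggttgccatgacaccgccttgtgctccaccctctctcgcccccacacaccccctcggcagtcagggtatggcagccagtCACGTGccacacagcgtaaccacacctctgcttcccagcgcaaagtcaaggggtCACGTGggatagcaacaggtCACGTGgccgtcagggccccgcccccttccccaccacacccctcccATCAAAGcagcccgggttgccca
Cdk6, chr5:3393658-3393907, plus strand: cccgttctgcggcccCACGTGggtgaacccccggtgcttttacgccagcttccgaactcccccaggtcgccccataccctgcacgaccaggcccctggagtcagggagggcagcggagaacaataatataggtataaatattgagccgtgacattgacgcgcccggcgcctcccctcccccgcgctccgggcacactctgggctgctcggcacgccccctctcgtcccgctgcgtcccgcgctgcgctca
Cdk2, chr10:128540964-128541213, minus strand: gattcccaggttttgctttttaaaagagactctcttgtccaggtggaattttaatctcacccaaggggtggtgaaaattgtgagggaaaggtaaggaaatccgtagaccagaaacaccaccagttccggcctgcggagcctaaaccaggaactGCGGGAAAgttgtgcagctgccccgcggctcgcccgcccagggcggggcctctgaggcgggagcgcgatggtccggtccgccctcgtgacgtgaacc
Ccne1, chr7:37807038-37807287, minus strand: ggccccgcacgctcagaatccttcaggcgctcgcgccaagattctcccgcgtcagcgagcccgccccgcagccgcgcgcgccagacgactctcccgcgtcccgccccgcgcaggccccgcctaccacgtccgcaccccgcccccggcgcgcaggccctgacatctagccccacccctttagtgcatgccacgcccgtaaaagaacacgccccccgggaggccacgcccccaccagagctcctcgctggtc
The window of *Cdk4* held 3 E-boxes, whose first bases lay 143, 89 and 69 bases before the start, and 1 TCF motif (ATCAAAG, 23 bases before it). Of 14156 promoters of protein-coding genes tested, 7.44% held an E-box and 9 (0.0636%) held 3 or more. The window of *Cdk6* held 1 E-box at 235 bases. That of *Cdk2* held 1 E2F motif (GCGGGAAA, 97 bases before the start), which 2.90% of promoters have. None of these letters was found in the window of *Ccne1*. Among all 10 genes, 2 held an E-box, 2 an E2F motif (*Cdk2* and *Ccnd3*) and 1 a TCF motif, which 6.25% of promoters have. A match describes the letters only, and binding was not measured.

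*Ccnd1* and *Ccnd2*, the D cyclins best known in the intestinal crypt, stood at similar normalised counts. *Ccnd1* (ENSMUSG00000070348, chromosome 7, 144483668 to 144493662, minus strand) had a lowest, median and highest value of 2886, 4420.4 and 8053 in minor clones, 2531, 5061 and 7463 in major clones and 1654, 4758 and 9666 in undivided tumours. *Ccnd2* (ENSMUSG00000000184, chromosome 6, 127102125 to 127129156, minus strand) had 3444, 5239 and 16575 in minor clones, 2588, 4719 and 7993 in major clones and 2587, 4649 and 8891 in undivided tumours. The 3 groups overlapped for both genes, and the minor clone of female tumour 26 stood alone at the top for *Ccnd2*. The log2 fold change between clones was 0.13 for *Ccnd1* (standard error 0.08, limma adjusted p = 0.360) and -0.16 for *Ccnd2* (standard error 0.11, limma adjusted p = 0.401). In tumour 26 of the female mouse the 2 cyclins went opposite ways, with *Ccnd1* higher by 0.96 and *Ccnd2* lower by 1.42 on the log2 scale in the major clone. Without that tumour the log2 fold change of *Ccnd2* was -0.09.

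Per kilobase of exon, *Ccnd1* made up 60.2% of the D cyclins in the median library (26.99% to 78.6%), *Ccnd2* 31.1% (15.8% to 67.7%) and *Ccnd3* 7.62% (4.24% to 13.5%). With the length of the longest transcript the medians were 52.2%, 33.0% and 12.98%, in the same order. *Ccnd3* (ENSMUSG00000034165, chromosome 17, 47815767 to 47910624, plus strand) was the steadiest of the 10 genes. It ranged from 889 to 1724 in all libraries, with a median of 1246 in minor clones, 1225 in major clones and 1228 in undivided tumours. Its standard deviation on the log2 scale within groups and mice was 0.20, below the 0.28 of the median gene of similar level. *Gm64599* and *Gm64600* overlap *Ccnd3* on the same strand, so reads they share may be split between the genes.

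*Ccne1* (ENSMUSG00000002068, chromosome 7, 37797404 to 37808264, minus strand), the cyclin of CDK2, had a median of 554 in minor clones (198 to 1292), 511 in major clones (302 to 1126) and 458 in undivided tumours (222 to 1234). Its standard deviation of 0.62 on the log2 scale was above that of 86.8% of genes of similar level. *Ccne1* was lower in the major clone of 14 of 20 tumours, by -0.13 on the log2 scale (standard error 0.13, adjusted p = 0.595). In male tumour 28 it was higher by 1.60 on the log2 scale in the major clone, and without that tumour the log2 fold change was -0.22 (limma adjusted p = 0.233).

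Among the inhibitors, *Cdkn1b* (ENSMUSG00000003031, chromosome 6, 134897364 to 134902476, plus strand), which encodes p27, had a median of 735 in minor clones (477 to 1269), 784 in major clones (514 to 1168) and 795 in undivided tumours (588.5 to 1721). Its log2 fold change between clones was 0.01 (95% interval -0.14 to 0.15). *Cdkn1b* was higher in the major clone of 7 of 10 tumours of the female mouse and 2 of 10 of the male mouse. The difference between the mice was -0.25 on the log2 scale (standard error 0.13) and did not pass (limma, p = 0.0663 before adjustment, adjusted p = 0.663).

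*Cdkn1c* (ENSMUSG00000037664, chromosome 7, 143012069 to 143014806, minus strand) encodes p57 and is an imprinted gene. Its lowest, median and highest values were 976, 1837 and 3081 in minor clones, 492, 1417 and 3898 in major clones and 337, 1434 and 2845 in undivided tumours. Like *Cdk4*, it was lower in the major clone of 17 of 20 tumours, and the exceptions included female tumour 30, which held the highest value (3898 against 1244 in the minor clone). The log2 fold change was -0.32 (standard error 0.15, limma adjusted p = 0.206), and the permutation test over tumours gave p = 0.0619. Without female tumour 30 the adjusted p was 0.0774 and the log2 fold change -0.42. Undivided tumours were lower than minor clones with a value of -0.49 on the log2 scale (standard error 0.19, adjusted p = 0.135 in limma, permutation test within mice, p = 0.0165). In the male mouse alone this value was -0.95 and passed (limma adjusted p = 0.0454), where 757 of 16478 genes did. In the female mouse alone it was 0.03, where 0 of 16372 genes passed. The difference between the mice in this contrast was not tested. The adjusted p lay between 0.0454 and 0.972 over 56 alternative settings. Over the 63 libraries, after removal of group means within each mouse, *Cdkn1c* correlated with *Rn18s* at r = -0.37. That r was -0.60 in undivided tumours, -0.10 in minor clones and -0.45 in the male mouse. The part of *Rn18s* in the contrast of undivided tumours and minor clones was not tested. *4933417O13Rik* overlaps *Cdkn1c* on the same strand, so reads shared by the 2 genes may be split between them.

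**Figure D2:**
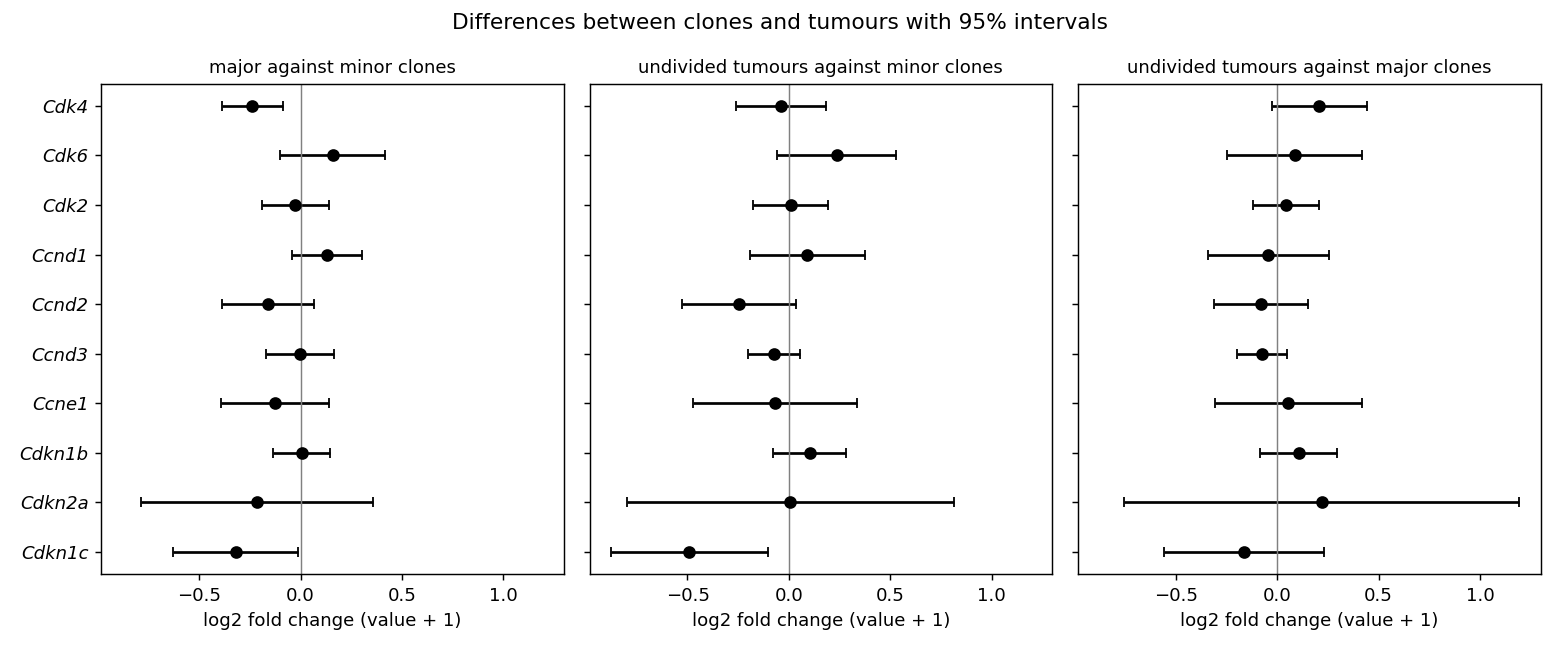
Log2 fold change of each gene (x axis, on the log2(value + 1) scale) with its 95% interval in 3 comparisons, which share libraries with one another. The intervals of *Cdk4* and *Cdkn1c* lie below 0 in major against minor clones, and that of *Cdkn1c* in undivided tumours against minor clones. All 3 are intervals before adjustment.

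*Cdkn2a* (ENSMUSG00000044303, chromosome 4, 89192708 to 89212890, minus strand) varied most. The locus encodes the CDK4 and CDK6 inhibitor p16 and, from another first exon, Arf, and the table gives 1 value for both. It had a lowest, median and highest value of 13.3, 54.5 and 285 in minor clones, 3.05, 57.8 and 525 in major clones and 11.2, 47.0 and 423 in undivided tumours. The standard deviation on the log2 scale within groups and mice was 1.50, and the median of 1266 genes of similar level was 0.71. Low-level genes vary more on this scale, and *Cdkn2a* was above 93.4% of those of its own level. The medians of the groups were close, and the groups overlapped throughout.

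Both clones had *Cdkn2a* on the same side of the median of their class in 14 of 20 tumours. That count was also 14 for *Cdk4*, and 16 for *Ccnd2* and *Cdkn1b*, with medians taken over both mice. With medians taken within each mouse it was 8 of 10 in the female and 8 of 10 in the male mouse for *Cdkn2a*. In the same order it was 8 and 6 for *Cdk4*, 6 and 8 for *Ccnd2* and 6 and 6 for *Cdkn1b*. These counts were not tested. Male tumours 19 and 20 were high in both clones (525 and 285, and 265 and 222, major and minor clone), and so was female tumour 20 (253 and 161). Female tumours 29, 24 and 28 were low in both (3.05 and 13.3, 9.07 and 13.6, and 14.7 and 16.7). The major clone was the higher in 10 tumours and the lower in 10, and the log2 fold change of -0.21 had a standard error of 0.28 (limma adjusted p = 0.683). The widest gaps within a tumour were 7.43 in the major against 56.4 in the minor clone of male tumour 29, and 129 against 32.7 in female tumour 27. The standard deviation of tumour means within mice was 1.46 on the log2 scale, and that between the clones of a tumour was 0.93, a ratio of 1.58. The same ratio was 1.61 for *Cdk4*, and at its lowest 0.407 for *Ccnd3*. Since a mean of 2 clones holds part of the spread between them, clones that share nothing give a ratio of about 0.707. The clones of a tumour also share its segment, which was not removed here. Male tumours 19 and 20 and female tumour 20 were of SI10, female tumours 24 and 28 of SI20 and female tumour 29 of SI30. The part of segment in this ratio was not tested.

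Segments of the small intestine (SI10 and SI20) were compared in the 17 heterotypic tumours whose clones carried the same label, with 1 mean per tumour, and separately in undivided tumours. In heterotypic tumours 0 of the 10 genes passed the adjusted threshold (background 0.28% of 16436 genes), and 3 had an unadjusted p under 0.05, where 14.3% of all genes did. *Cdkn2a* had a lowest, median and highest value of 22.4, 152 and 387 in 7 tumours of SI10 and 11.1, 33.9 and 115 in 10 of SI20, a difference of -1.58 on the log2 scale (standard error 0.52, adjusted p = 0.228). *Cdk6* had 182, 440.1 and 578 in SI10 and 414, 561 and 814 in SI20 (log2 fold change 0.56, standard error 0.20, limma adjusted p = 0.255). *Ccnd2* had 3470.4, 4063 and 6745 in SI10 and 4081, 5690.4 and 10127 in SI20 (0.41, standard error 0.15, limma adjusted p = 0.277). The segments overlapped for all 3. Without male tumour 19 the log2 fold change of *Cdk6* was 0.39. That tumour was lowest in *Cdk6* and highest in *Cdkn2a*.

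In undivided tumours 0 of the 10 genes passed between 11 tumours of SI20 and 12 of SI10 (background 0.17% of 16511 genes), and 0 had an unadjusted p under 0.05 (background 7.62%). The log2 fold changes of the same 3 genes were -0.41 for *Cdkn2a* (standard error 0.51), -0.11 for *Cdk6* (0.19) and -0.15 for *Ccnd2* (0.16). Whether the segments differed more in heterotypic than in undivided tumours was not tested.

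**Figure D3:**
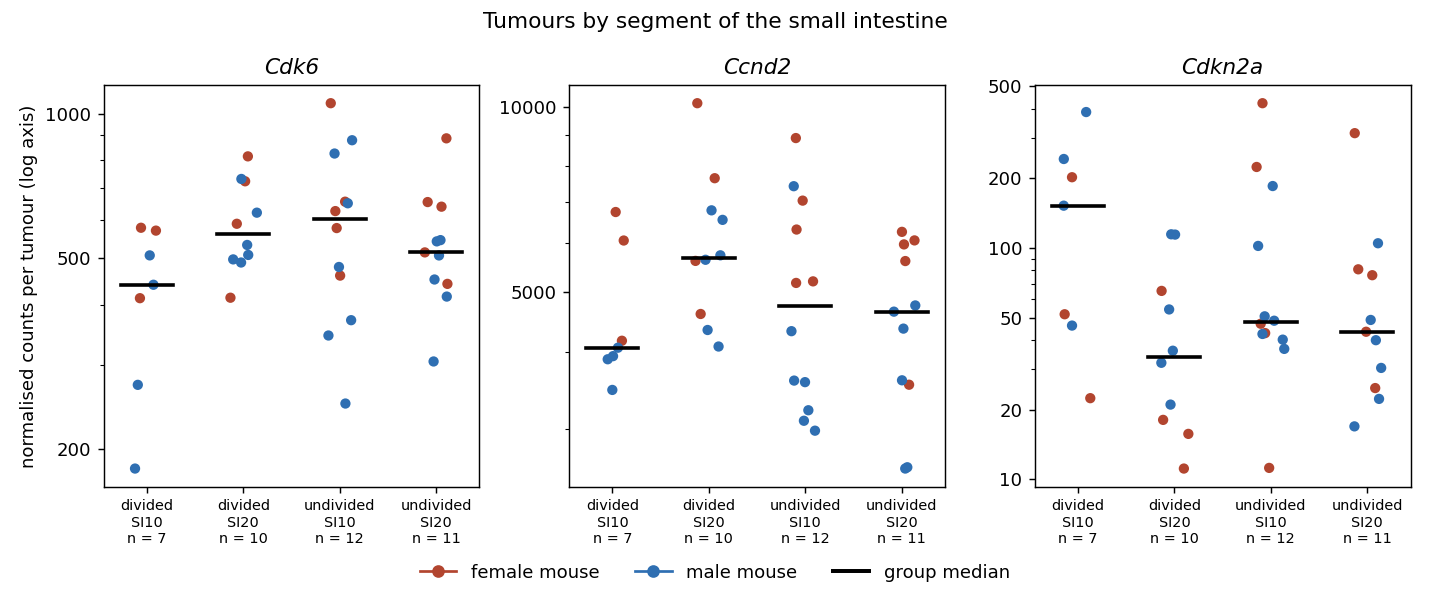
Normalised counts per tumour (log axis) of *Cdk6*, *Ccnd2* and *Cdkn2a* by segment, for heterotypic tumours (labelled divided, geometric mean of the 2 clones) and undivided tumours. Bars are medians and colours mark the mouse. Median *Cdkn2a* was 152 in SI10 and 33.9 in SI20 of heterotypic tumours, and 47.7 and 43.4 in undivided tumours.

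The difference between clones was compared between segments and between mice with limma, and 0 of 16436 and 0 of 16428 genes passed (0% each). At an unadjusted p under 0.05 there was 1 of the 10 between segments (background 4.06%, 667 genes) and 0 between mice (background 7.65%, 1257 genes). The 1 was *Cdk6*, which was higher in the major clone of 9 of 10 tumours of SI20 (mean log2 difference 0.39) and of 3 of 7 of SI10 (-0.19). The difference of 0.59 had a standard error of 0.26 and an adjusted p of 0.998. *Rn18s* was lower in the major clone of 9 of 10 tumours of SI20 and 5 of 7 of SI10, and its part in the values of *Cdk6* was not tested. The 2 tumours of SI30, both of the female mouse, had the highest means of *Ccnd1* among heterotypic tumours (7232 and 7752) and, with male tumour 19, of *Ccne1* (771 and 984), and single undivided tumours reached 9666 and 1234.

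Over the 63 libraries, after removal of group means within each mouse, *Cdk4*, *Cdk2*, *Ccnd1* and *Ccne1* varied together. Pearson's r was 0.67 for *Cdk4* with *Ccne1*, 0.59 for *Cdk2* with *Ccne1*, 0.52 for *Cdk4* with *Cdk2* and 0.49 for *Ccnd1* with either *Cdk2* or *Ccne1*. Each of these was positive in every group and in both mice, and without the 2 libraries farthest from the median it was 0.42 or more. The remaining pair, *Cdk4* with *Ccnd1*, was at 0.38. *Ccnd3* was not clearly apart from the 4, with r of 0.41 to *Cdk2* and 0.45 to *Ccne1*, and 0.22 to both *Cdk4* and *Ccnd1*. *Cdk6* went the other way from *Cdk4* (r = -0.49, Spearman's rho -0.35, and -0.36 without the 2 farthest libraries), from -0.34 in undivided tumours to -0.60 in minor clones. For the inhibitors r was between -0.32 and 0.20 to each of the 4 over all libraries, and these values differed between mice and groups. *Cdkn1b* with *Cdk4* was at -0.45 in the female and 0.53 in the male mouse, *Cdkn1b* with *Ccnd1* at -0.48 in the female mouse, *Cdkn1c* with *Ccnd1* at 0.41 in undivided tumours and *Cdkn2a* with *Cdk4* at 0.41 in the male mouse. These are descriptions over libraries that share their scaling, a mouse and, for clones, a tumour.

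**Figure D4:**
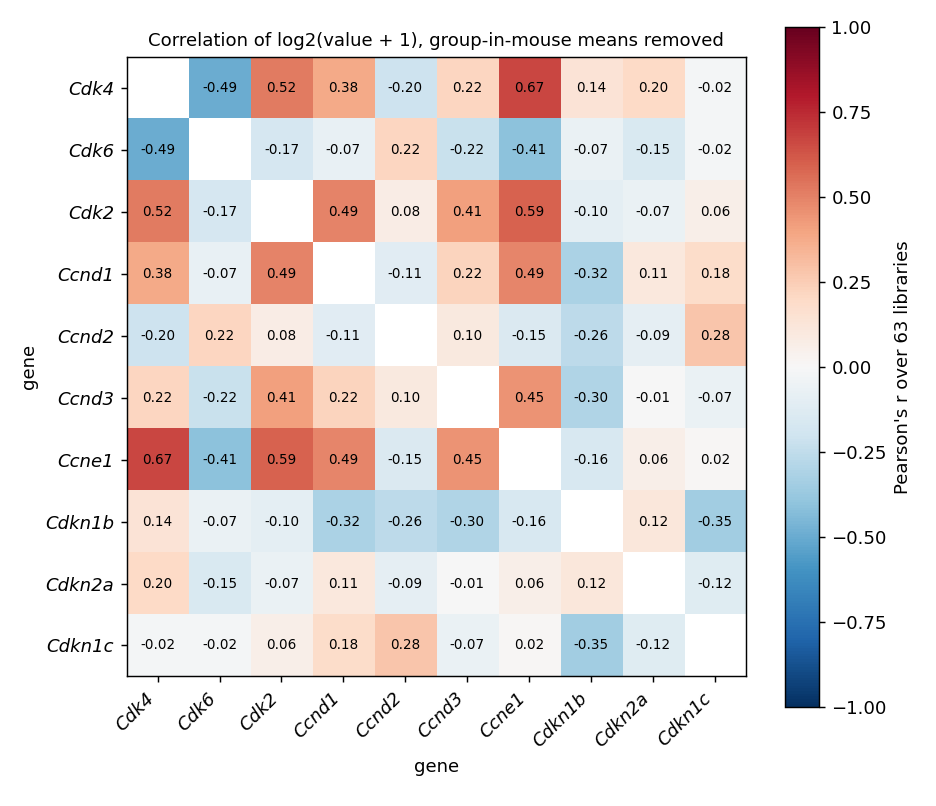
Pearson's r between the 10 genes over 63 libraries, on log2(value + 1) after removal of the mean of each group within each mouse. Red is positive and blue negative. *Cdk4*, *Cdk2*, *Ccnd1* and *Ccne1* are positive with one another (0.38 to 0.67), and *Cdk6* with *Cdk4* is at -0.49.

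The genes whose pattern was most like each of the 10 over the 63 libraries differed between them. For *Cdk4* they were *Apex1* (r = 0.92), a DNA repair enzyme, *Rbbp4* (0.92) and *Hmgn2* (0.91), both chromatin proteins. For *Ccne1* they were the mitotic kinases *Aurka* and *Aurkb* (0.89 each) and *Ccnf* (0.88), and for *Cdk2* they were *Ppat* (0.79), the first enzyme of purine synthesis, *Utp15* and *Tmpo* (0.79 and 0.78). *Cdkn2a* was most like *Ccng1* (0.69), which encodes cyclin G1, then *Inka2* (0.55) and the apoptosis gene *Bax* (0.54), and its r with *Ccng1* was 0.51 in minor clones, 0.81 in major clones and 0.75 in undivided tumours. *Cdkn1c* was most like *Fgf3* (0.78), *Dbn1* (0.77) and *Tubb4a* (0.74), with an r to *Fgf3* of 0.27 in minor clones and 0.90 in undivided tumours. *Ccnd1* was most like *Dyrk3* (0.76), *Abce1* (0.73) and *Prpf4* (0.72). For *Cdkn1b* they were *Pnrc2*, *Vamp4* and *Mat2b* (0.73 to 0.70), for *Cdk6* *Disp2*, *Ets1* and *Nfatc1* (0.66 to 0.64), for *Ccnd3* *Klf16*, *Kif14* and *Utp4* (0.63 to 0.60) and for *Ccnd2* *Tyro3*, *Pgc* and *Mapkbp1* (0.55 to 0.50). With the mean of 20 E2F target genes, r was 0.85 for *Ccne1*, 0.75 for *Cdk2* and 0.63 for *Cdk4*. With *Myc* it was 0.69 for *Ccne1*, 0.68 for *Cdk4*, 0.55 for *Cdk2* and 0.52 for *Ccnd1*, and -0.01 for *Ccnd2*.

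The rest of the machinery was taken from lists of related genes, whose counts between clones stand beside the 1.14% of all genes called there. Of 13 pocket protein and E2F genes, 1 was higher in major clones and 0 lower by the adjusted threshold of limma. It was *Rb1*, the retinoblastoma gene, at 0.30 on the log2 scale (standard error 0.07, adjusted p = 0.0417). The median of that list was 0.06. Of 18 other cyclins and kinases none passed, and the lowest adjusted p was that of *Cdk7*, the kinase that activates CDKs (log2 fold change -0.21, adjusted p = 0.0672), ahead of *Ccnc* (-0.15, 0.135). Of 5 other CDK inhibitors none passed, with *Cdkn2b*, the neighbour of *Cdkn2a*, at 0.34 (adjusted p = 0.106) and *Cdkn2c* at 0.15 (0.456). Of 20 E2F targets none passed, 17 were higher and 3 lower, where 51.8% of all genes were higher, and the median was 0.10. Among them *Rrm2*, a subunit of ribonucleotide reductase, was at 0.26 (limma adjusted p = 0.144) and *Mcm3*, a replication helicase subunit, at 0.18 (0.323). Of 13 regulators of the kinases none passed, with *Ambra1* at 0.11 (0.264) and *Cks2* at -0.14 (0.354).

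In undivided tumours against minor clones, 3.7% of all genes were called. *Ccng2*, a cyclin linked to cell cycle arrest, was the 1 of 18 other cyclins and kinases that passed (log2 fold change 0.53, standard error 0.12, adjusted p = 0.0142). Among the E2F targets *Rrm2* was higher (0.44, adjusted p = 0.0364), and the count of that list is not given here. Of 7 enterocyte markers *Sis*, a brush border enzyme, was higher in both comparisons with minor clones (1.10 in major clones, adjusted p = 0.0439, and 1.17 in undivided tumours, adjusted p = 0.0169). In undivided tumours against minor clones the secretory markers *Chga* and *Chgb* (0.93 and 0.95), the epithelial *Cldn7* (0.28) and the T cell gene *Cd3e* (0.94) were higher and the endothelial *Cdh5* (-1.12) was lower. Except for the leukocyte markers, their lists were mixed in that comparison, where 46.7% of all genes were higher. Of 9 secretory markers 4 were higher and 5 lower (median -0.11), and of 7 epithelial markers 4 and 3. Of 5 endothelial markers 3 were higher and 2 lower, and of 8 leukocyte markers tested 7 and 1. The enterocyte markers were higher in 7 of 7 (median 0.49). In major against minor clones *Chga* stood at 0.76 (adjusted p = 0.0517), *Vil1* at 0.33 (0.0624), *Lct* at 1.14 (0.0815), *Ptprc* at 0.49 (0.0703), *Itgam* at 0.41 (0.0821), *Cldn7* at 0.16 (0.0984), *Plvap* at 0.48 (0.188) and *Cdh5* at -0.54 (0.143). In the other comparisons no gene of these lists passed.

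Compared per kilobase of merged exon, the level of *Cdk4* was the highest of the 10, with a median of 1774 per kilobase, followed by *Ccnd1* (995), *Cdkn1c* (681) and *Ccnd2* (505). *Cdkn1b* (169.7), *Ccne1* (141) and *Ccnd3* (134) came next, and *Cdk2* (89.8), *Cdkn2a* (41.6) and *Cdk6* (35.6) were lowest. *Cdk4* exceeded *Ccnd1* in 60 of 63 libraries, *Ccnd2* exceeded *Cdkn1b* in 63 and *Ccnd3* exceeded *Cdk2* in 63. The order of *Ccne1* and *Ccnd3* (36 of 63) and of *Cdkn2a* and *Cdk6* (37 of 63) was not steady over libraries. With the longest transcript as the length, *Cdk4*, *Ccnd1*, *Ccne1*, *Cdkn2a* and *Cdk6* kept their places, and *Cdkn1b* moved to the eighth.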

How the data were processed

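RNA was measured by stranded, polyA-selected, paired-end sequencing in 63 libraries. Per the labels and the study's methods, the authors trimmed reads with Trimmomatic 0.39, estimated counts per gene with Salmon 1.9.0 against Gencode M30 (GRCm39) and normalised them with DESeq2, and deposited 1 table of normalised counts (a signal that is never negative, not whole reads). Its sums over genes were 26140227 to 45909885 per library, and reads behind a value are unknown, so a count model was not used. Whether a clone was major or minor was taken from the source data of the study by tumour title.

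Values were taken as log2(value + 1), genes with a mean of at least 10 were kept, and limma 3.58.1 (R 4.3.3, moderated with a trend) was fitted to all of them, with Benjamini-Hochberg adjustment over all genes tested and a threshold of 0.05. Fold changes are on this log2(value + 1) scale and understate those of low genes. Tumour was a block for the 2 clones, since the 2 libraries of a title come from 1 tumour. Their deviations from the class means correlated at a median r of 0.26 over genes (0.03 to 0.62), above 0.1 in 17 of 20 tumours. Means of each mouse and segment were not removed, and clones of different tumours were not compared, so this r does not test the pairing. Mouse was a covariate elsewhere. Permutation tests used 100000 draws and were two-sided. The fit was tested on simulated data. Length, position and promoters were read from Gencode M39 on GRCm39 (24575 of 24766 identifiers matched) with Python 3.11.15 and pandas 2.3.3, and figures were drawn with matplotlib 3.10.9.

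The 10 genes and the lists of related genes were chosen with earlier results of these data known. Named besides the 10 were, per gene, the 3 genes most alike over libraries and, per list, those called and the 2 with the lowest p. The result of 1 called gene of these lists is not reported here. Female tumour 22, whose clones carried different segment labels, and the 2 tumours of SI30 were left out of segment comparisons. Alternatives were other pseudocounts, filters, scalings, covariates and subsets of tumours.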

Additional observations from a re-analysis of the deposited data

Results flagged for a closer look

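Each group of 10 libraries of 1 class and 1 mouse was searched for a value apart, on the log2(value + 1) scale. The highest or lowest value stood apart from the other 9 by more than 0.466 of the range on that scale in 6 of 50 groups tested, where chance gives about 2.5. Values are given as normalised counts. *Cdk4* at 9657 in the major clone of female tumour 29 was above the next value of 6521, and *Ccne1* at 1126 in the same library was above 608. *Cdk2* at 999 in the minor clone of male tumour 19 was above 677. *Ccnd2* at 16575 in the minor clone of female tumour 26 was above 7630.3. *Ccnd3* at 1026 in undivided female tumour 3 lay below 1222, and *Cdkn1c* at 492 in the major clone of male tumour 20 lay below 1128. Without male tumour 20 the log2 fold change of *Cdkn1c* between clones was -0.26.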

How the results depend on the processing

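Of the 10 genes *Cdk4* alone passed in major against minor clones, so that 1 gene in place of 0 was called, with quantile normalisation (-0.30, adjusted p = 0.0440), with the same sum per library without *Rn18s* (-0.29, 0.0474) and without female tumour 19 (-0.28, 0.0260), giving 0 to 1 genes when 1 tumour was left out. Without the tumour block the adjusted p of *Cdk4* was 0.368 and of *Cdkn1c* 0.332, and 1 gene in all passed in place of 188. *Cdkn1c* was the 1 gene that passed in undivided tumours against minor clones in the male mouse alone (-0.95, adjusted p = 0.0454). The cause was not tested. Of all genes, 188 were called between clones, and 85 without a filter, 366 with quantile normalisation, 292 with the same sum, 564 with the same sum without *Rn18s*, 89 without a trend, 86 without SI30, 42 without female tumour 22, 859 without female tumour 19, 0 in the female and 33 in the male mouse. The share called higher was 58.5%, and 38.5% and 27.7% with quantile normalisation and the same sum without *Rn18s*. In undivided tumours against minor clones 0 to 959 were called (610 reported), of them 61.5% higher, and 36.7% and 29.5% with the same sum with and without *Rn18s*, which moved the median of all genes to -0.11 and -0.12. The calls were 0 to 25 for undivided tumours against major clones, 0 to 53 for segments of undivided and 0 to 215 of heterotypic tumours. Values of the 10 genes that turned their sign, 0 of which passed the threshold, follow. For major against minor clones these were, with quantile normalisation *Cdkn1b* -0.0049, with the same sum without *Rn18s* *Cdkn1b* -0.051, without the SI30 tumours *Ccnd3* 0.024, without female tumour 22 *Ccnd3* 0.018, *Cdkn1b* -0.031, in the female mouse alone *Cdk2* 0.075, in the male mouse alone *Ccnd3* 0.071, *Cdkn1b* -0.12. For undivided tumours against minor clones these were, with a pseudocount of 5 *Cdkn2a* -0.0017, with the same sum per library *Cdk2* -0.084, *Ccnd1* -0.0027, *Cdkn2a* -0.085, with the same sum without *Rn18s* *Cdk2* -0.096, *Ccnd1* -0.015, *Cdkn1b* -0.0039, *Cdkn2a* -0.097, with segment as a further covariate *Ccne1* 0.0089, *Cdkn2a* -0.16, with SI10 and SI20 only *Cdk4* 0.0094, *Ccne1* 0.0024, *Cdkn2a* -0.086, in the female mouse alone *Cdk4* 0.13, *Ccne1* 0.26, *Cdkn1c* 0.031, in the male mouse alone *Cdk2* -0.21, *Ccnd1* -0.20, *Cdkn2a* -0.83. For undivided tumours against major clones these were, with the same sum per library *Cdk6* -0.0045, *Cdk2* -0.048, *Ccne1* -0.034, with the same sum without *Rn18s* *Cdk2* -0.0088, with segment as a further covariate *Cdkn2a* -0.13, with SI10 and SI20 only *Cdkn2a* -0.026, in the female mouse alone *Ccnd1* 0.36, *Ccnd2* 0.074, *Ccnd3* 0.033, *Cdkn1c* 0.19, in the male mouse alone *Cdk2* -0.088, *Ccne1* -0.28, *Cdkn2a* -0.65. For SI20 against SI10 in undivided tumours these were, in the female mouse alone *Cdkn1b* 0.043, *Cdkn1c* -0.45. For SI20 against SI10 in heterotypic tumours these were, with quantile normalisation *Ccnd3* -0.029, with the same sum per library *Cdk2* 0.015, in the female mouse alone *Cdk4* 0.027, *Cdk2* 0.091, *Ccnd1* 0.15, *Ccnd3* -0.029, *Ccne1* 0.19, *Cdkn1b* 0.061. For clone difference, SI20 against SI10 these were, with the same sum per library *Cdkn1c* 0.015, with the same sum without *Rn18s* *Ccne1* -0.013. Leaving out 1 tumour or library at a time turned the sign of 11 values. Their ranges were, for undivided tumours against major clones, *Ccnd1* -0.087 to 0.012, *Ccne1* -0.00043 to 0.12. Their ranges were, for SI20 against SI10 in heterotypic tumours, *Ccnd3* -0.019 to 0.047, *Cdk2* -0.039 to 0.063. Their ranges were, for major against minor clones, *Ccnd3* -0.033 to 0.036, *Cdk2* -0.054 to 0.021, *Cdkn1b* -0.031 to 0.027. Their ranges were, for undivided tumours against minor clones, *Ccne1* -0.14 to 0.017, *Cdk2* -0.021 to 0.061, *Cdk4* -0.075 to 0.014, *Cdkn2a* -0.14 to 0.13.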

Other observations

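The levels of the 10 genes in the 2 mice, which cannot be told apart from sex, are given as values without a test. In undivided tumours the median of *Ccnd1* was 6477 in the female (4758 to 9666) and 3705 in the male mouse (1654 to 7829), a log2 difference of 0.89. *Cdkn1c* had medians of 1704 and 1012 (a log2 difference of 1.03), and *Ccne1* of 697 and 414 (0.75). In major clones the log2 differences of the same 3 genes were 0.13, 0.38 and 0.05, and in minor clones 0.26, 0.05 and 0.13. *Cdkn1b*, the p27 gene, was lower in the female mouse in all 3 groups (log2 differences of -0.47 in minor clones, -0.22 in major clones and -0.39 in undivided tumours). *Cdkn2a* was lower in the female mouse in minor and major clones (-1.17 and -1.25) and higher in undivided tumours (0.61). The ranges of the 2 mice overlapped for each of the 10 genes in each group.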
